A study of Mus musculus with 28 samples.

Results

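The SLC22 family of organic ion transporters was followed in liver through 7 genes, namely Slc22a4, Slc22a5, Slc22a7, Slc22a15, Slc22a18, Slc22a23, and Slc22a30. They were chosen by symbol, with earlier results of these data known, and matched to the Ensembl gene identifiers of the count table. All 7 were among the 21935 genes counted, and all 7 passed the filter on low counts that left 12580 genes for testing. The livers came from 28 male B6.V-Lepob/JRj mice (called ob/ob), an obese strain without functional leptin, so all 3 groups shared the leptin deficiency. The mice were obtained at 5 weeks of age and fed for 14 weeks the AMLN diet, which is high in fat, fructose, and cholesterol, before a once-daily oral treatment of 2 weeks. Of these, 10 mice received vehicle (carboxymethylcellulose), 9 received obeticholic acid (OCA) 30 mg/kg, and 9 received INT-787 30 mg/kg. Both drugs were given as agonists of the farnesoid X receptor (FXR), a nuclear receptor that bile acids activate. Lean mice, another diet, and other doses were not analysed here, and 1 library of polyadenylated RNA was sequenced per mouse.

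SLC22 proteins sit in cell membranes and move small charged molecules in or out of the cell. One branch of the family carries organic anions such as metabolites, nucleotides, and many drugs, another carries organic cations, and a branch between them carries molecules with both charges such as carnitine and ergothioneine. In the liver they lie mostly in the hepatocyte membrane facing the blood, next to the organic anion transporting polypeptides (Slco genes), while pumps of the ABC family export bile acids and conjugates into bile.

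The 7 genes lay on 6 chromosomes of the mouse build GRCm38. Slc22a4 (ENSMUSG00000020334, chr11:53983123-54028090, minus strand) and Slc22a5 (ENSMUSG00000018900, chr11:53864542-53891660, minus strand) lay 91.5 kb apart, with Slc22a21 between them. Slc22a7 (ENSMUSG00000067144) was at chr17:46432183-46438457 on the minus strand, Slc22a15 (ENSMUSG00000033147) at chr3:101855776-101924453 on the minus strand, Slc22a18 (ENSMUSG00000000154) at chr7:143473736-143499334 on the plus strand, and Slc22a23 (ENSMUSG00000038267) at chr13:34179158-34345182 on the minus strand. Slc22a30 (ENSMUSG00000052562, chr19:8335371-8405111, minus strand) belonged to a row of Slc22 genes on chromosome 19 in which Slc22a29 (116 kb away), Slc22a8, Slc22a28, and Slc22a6 were its nearest relatives. No exon of the 7 genes overlapped an exon of another gene on either strand (0 bases).

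Reads of close relatives can be exchanged in counting, so exon sequence was compared in windows of 75 bases. Of the windows of Slc22a30, 26.7% occurred unchanged in another gene, mainly Slc22a28 (853 of 3368 windows), and 17.1% of the windows of Slc22a5 occurred in Slc22a21 (537 of 3141). The share was 0.565% in Slc22a4 and 0 in Slc22a7, Slc22a15, Slc22a18, and Slc22a23. The partners were nearly silent in these livers. Slc22a28 had 87 counts and Slc22a21 had 67 counts over all 28 mice. The 300 bases around the start of Slc22a30 and Slc22a28 show how close this pair is. They are the RefSeq promoter windows (GRCm38.p6, 250 bases before to 50 after the start, 5′ to 3′ on the minus strand), at chr19:8405056-8405355 and chr19:8131933-8132232. Capitals mark the bases that differ or have no partner in their alignment, 12 in each, and 288 of 306 aligned positions were identical (94.1%).
Slc22a30: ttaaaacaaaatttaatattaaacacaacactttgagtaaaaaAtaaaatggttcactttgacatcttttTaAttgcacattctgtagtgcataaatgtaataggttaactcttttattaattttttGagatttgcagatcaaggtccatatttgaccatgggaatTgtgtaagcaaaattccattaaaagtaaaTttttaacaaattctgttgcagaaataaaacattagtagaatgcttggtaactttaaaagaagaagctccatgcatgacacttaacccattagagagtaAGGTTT
Slc22a28: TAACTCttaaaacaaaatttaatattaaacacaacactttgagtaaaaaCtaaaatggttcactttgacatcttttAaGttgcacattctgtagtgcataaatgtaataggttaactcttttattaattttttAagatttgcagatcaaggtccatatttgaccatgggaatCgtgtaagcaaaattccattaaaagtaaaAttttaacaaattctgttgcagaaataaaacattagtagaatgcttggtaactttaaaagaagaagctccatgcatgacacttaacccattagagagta
In spite of this likeness the gene levels were far apart, as Slc22a30 had a mean of 29.01 CPM (the usual normalised read count, scaled to a common library size by edgeR's TMM factors) and Slc22a28 at most 0.66 CPM in any mouse.

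Windows of 6 of the 7 genes were found in RefSeq, all but Slc22a7. The windows of 2 genes that passed the test in 1 comparison each are shown, Slc22a4 (chr11:54028055-54028354, minus strand) and Slc22a15 (chr3:101924404-101924703, minus strand), with the pairs CG in capitals.
Slc22a4: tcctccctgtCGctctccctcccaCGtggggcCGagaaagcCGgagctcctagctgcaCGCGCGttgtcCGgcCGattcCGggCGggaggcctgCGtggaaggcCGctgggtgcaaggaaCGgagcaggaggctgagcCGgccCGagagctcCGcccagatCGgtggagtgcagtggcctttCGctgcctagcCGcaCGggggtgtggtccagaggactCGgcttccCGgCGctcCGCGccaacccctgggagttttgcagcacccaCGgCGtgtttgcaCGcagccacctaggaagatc
Slc22a15: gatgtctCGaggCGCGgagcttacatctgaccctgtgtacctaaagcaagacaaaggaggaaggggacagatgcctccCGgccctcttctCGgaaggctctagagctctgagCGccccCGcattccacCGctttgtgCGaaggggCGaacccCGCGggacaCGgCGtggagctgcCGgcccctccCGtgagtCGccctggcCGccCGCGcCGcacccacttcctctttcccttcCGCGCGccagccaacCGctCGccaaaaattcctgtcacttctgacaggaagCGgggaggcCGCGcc
Each held 29 CG pairs, against a median of 7 over 32851 windows of all genes. Slc22a5 held 34 and Slc22a23 held 38, while Slc22a18 held 2 and Slc22a30 held 0. The 6 windows were also searched on both strands for AGGTCA, a core motif that nuclear receptors read, alone or doubled as an inverted repeat (AGGTCANTGACCT, called IR1) or a direct repeat (AGGTCANAGGTCA, called DR1). The core motif was in none of the 6 windows and in 16.3% of all windows. The nearest stretches to IR1 and to DR1 in the 6 windows differed from them at 3 to 5 positions, while an IR1 with at most 1 mismatch was in 0.0822% of all windows and such a DR1 in 0.554%. Each of these motifs contains the core motif.

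Total counts per mouse ranged from 1009593 (vehicle replicate 6) to 22421506, and the next lowest was 9313260. A set of 5 libraries lay farther from the median profile of their group than the other 23, with a root mean square log2 distance of 0.41 to 0.50 against 0.17 to 0.30. They were vehicle replicates 5, 6, and 10, OCA replicate 8, and INT-787 replicate 8. Results were computed with all 28 mice and again without these 5. Differences are log2 fold changes from edgeR's quasi-likelihood test with a 95% confidence interval (CI), and a gene was taken to have risen or fallen at a Benjamini-Hochberg adjusted p of at most 0.05 over the 12580 genes.

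With INT-787, 2 of the 7 transporters rose against vehicle and 0 fell, and in all genes tested 19.6% changed, 10.2% upward and 9.48% downward. With OCA, 1 rose and 1 fell, and in all genes 6.60% changed, 4.15% upward and 2.45% downward. Between INT-787 and OCA none of the 7 passed the test in edgeR, where 5.38% of all genes did, and 2 of the 7 had an unadjusted p under 0.05. DESeq2 and limma-voom also called 0 of the 7 between the drugs. The median log2 fold change of the 7 was 0.0029 (INT-787), 0.041 (OCA), and 0.19 (difference of the drugs), beside -0.0010, 0.018, and -0.0065 over all genes tested. Both drugs were compared with the same 10 vehicle mice. With upper-quartile scaling, 960 of 2557 calls for INT-787 were upward in place of 1277 of 2469, 408 of 780 for OCA in place of 522 of 830, and 228 of 708 between the drugs in place of 276 of 677.

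**Figure D1:**
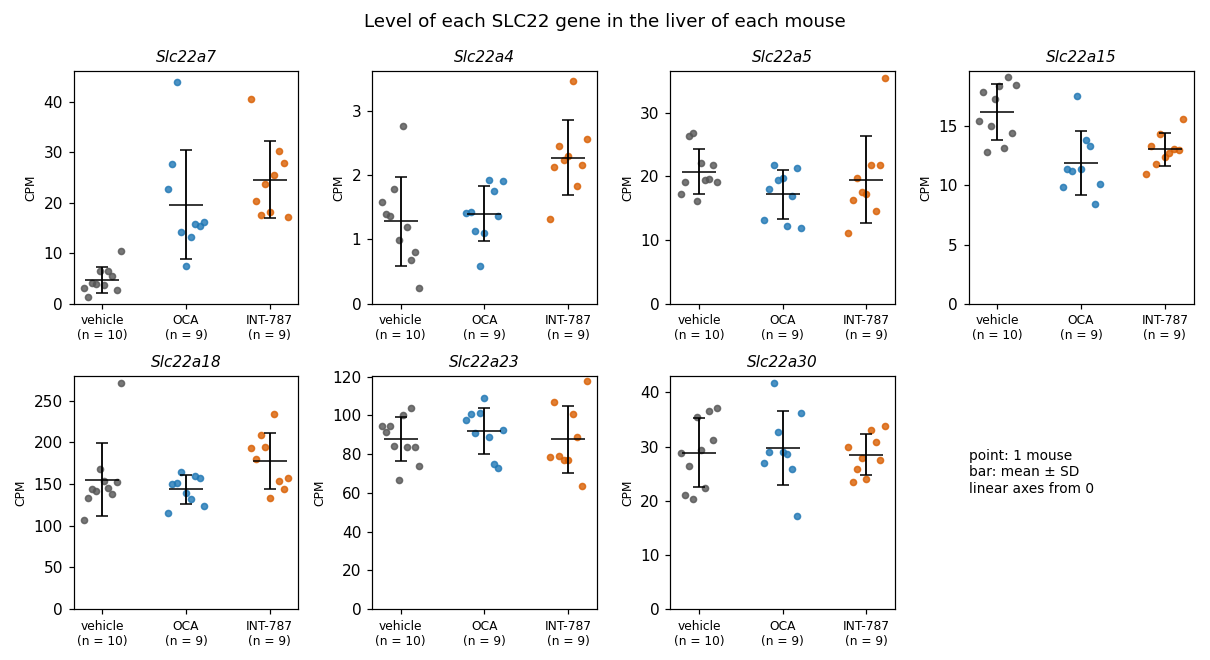
Level of each SLC22 gene in CPM (vertical axis, linear, from 0) in each mouse by group, with the mean and SD as a bar. Slc22a7 lies higher in all 9 INT-787 mice than in any vehicle mouse, Slc22a4 is higher with INT-787 than its vehicle mean in all 9 mice, and the groups overlap widely for Slc22a18, Slc22a23, and Slc22a30.

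Slc22a7, which encodes the organic anion transporter OAT2 of the hepatocyte membrane, rose several-fold with both drugs. In the 10 vehicle mice it ranged from 1.39 to 10.4 CPM with a median of 4.04. In the 9 OCA mice it ranged from 7.48 to 44.0 CPM with a median of 15.8, and in the 9 INT-787 mice from 17.1 to 40.5 CPM with a median of 23.6. Every INT-787 mouse lay above every vehicle mouse. Of the OCA mice 8 of 9 did so, and OCA replicate 5, at 7.48 CPM, lay below vehicle replicate 10, at 10.4 CPM. The means were 4.79 ± 2.56 CPM (SD, n = 10) with vehicle, 19.6 ± 10.8 CPM (SD, n = 9) with OCA, and 24.5 ± 7.59 CPM (SD, n = 9) with INT-787. The log2 fold change against vehicle was 2.33 with INT-787 (SE 0.28, CI 1.76 to 2.91, adjusted p = 2.3e-07 by edgeR), a 5.04-fold rise. With OCA it was 2.02 (SE 0.28, CI 1.44 to 2.59, adjusted p = 9.1e-06 by edgeR), a 4.05-fold rise. Without the 5 libraries far from their group the log2 fold changes were 2.60 and 2.35.

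The drugs were compared once for each gene, at the same dose and time. For Slc22a7 the log2 difference of INT-787 from OCA was 0.32 (CI -0.22 to 0.85, adjusted p = 0.58 by edgeR), which is 1.24-fold with a CI from 0.859-fold to 1.80-fold. All 9 INT-787 mice lay above the OCA median, but none lay above OCA replicate 3, the highest of the OCA mice at 44.0 CPM. The difference was smaller than the spread between mice, and its interval leaves room for a level up to 1.80-fold higher with INT-787.

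**Figure D2:**
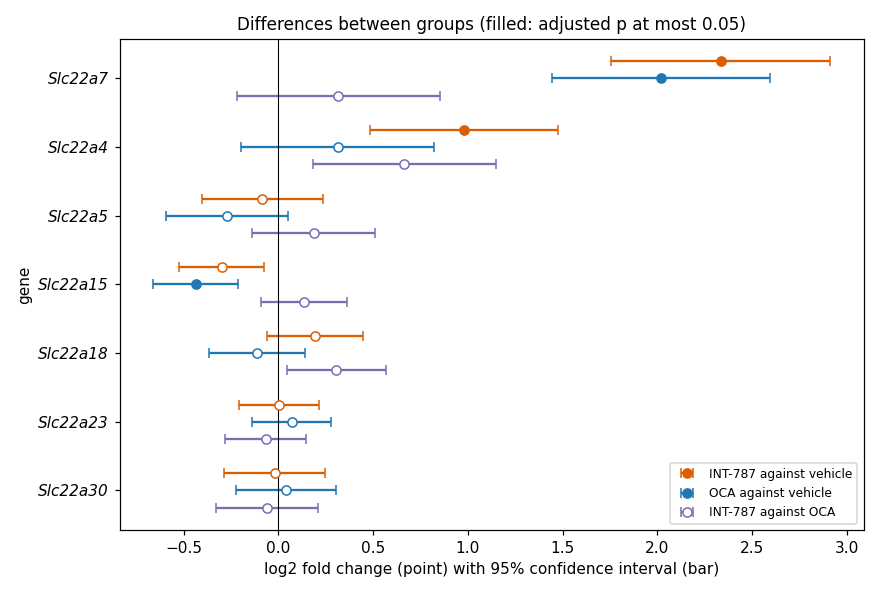
Log2 fold change of each gene (horizontal axis) with its 95% CI, for each drug against vehicle and for INT-787 against OCA, with filled points where the adjusted p was at most 0.05. Slc22a7 lies at 2.33 and 2.02 against vehicle, Slc22a4 at 0.98 with INT-787, and Slc22a15 at -0.44 with OCA.

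Slc22a4 and Slc22a5 encode the related transporters OCTN1 and OCTN2. OCTN1 takes up the dietary antioxidant ergothioneine, and OCTN2 is the high-affinity importer of carnitine, which carries long-chain fatty acids into mitochondria. Slc22a4 rose with INT-787. It ranged from 0.25 to 2.76 CPM with a median of 1.28 in vehicle mice, from 0.59 to 1.93 CPM with a median of 1.42 in OCA mice, and from 1.32 to 3.46 CPM with a median of 2.24 in INT-787 mice. All 9 INT-787 mice were above the vehicle median, 8 of 9 were above the OCA median, and 7 of 9 were above every OCA mouse. The mean was 1.28 ± 0.69 CPM (SD, n = 10) with vehicle, 1.40 ± 0.43 CPM (SD, n = 9) with OCA, and 2.27 ± 0.58 CPM (SD, n = 9) with INT-787.

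For Slc22a4 the fitted log2 fold change under INT-787 was 0.98 (SE 0.24, CI 0.48 to 1.48, adjusted p = 0.0043 by edgeR), and with OCA it was 0.31 (CI -0.20 to 0.82, adjusted p = 0.57). The direct difference between the drugs was 0.66 (CI 0.18 to 1.15) with an unadjusted p of 0.0086 and an adjusted p of 0.098 by edgeR, so it missed the threshold. Without vehicle replicate 10 it was 0.68 with an adjusted p of 0.043, and this was the only one of the 28 single-mouse omissions that brought it under 0.05. Slc22a4 rested on few reads, between 3 and 45 per mouse. The highest vehicle value, 2.76 CPM in replicate 6, came from 3 counts, for which the exact Poisson interval runs from 0.569 to 8.06 CPM and covers counting error alone.

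Slc22a5 passed the test in none of the 3 comparisons. Its mean was 20.7 ± 3.53 CPM (SD, n = 10) with vehicle, 17.2 ± 3.89 CPM (SD, n = 9) with OCA, and 19.5 ± 6.86 CPM (SD, n = 9) with INT-787. The vehicle mice ranged from 16.1 to 26.8 CPM, the OCA mice from 11.96 to 21.8 CPM, and the INT-787 mice from 11.1 to 35.4 CPM, so the 3 groups overlapped. Fitted log2 fold changes of Slc22a5 were -0.085 with INT-787 (CI -0.40 to 0.23) and -0.27 with OCA (CI -0.59 to 0.05), with adjusted p values of 0.76 and 0.38 by edgeR. The difference of INT-787 from OCA was 0.19 (CI -0.14 to 0.51, adjusted p = 0.59). The highest value belonged to INT-787 replicate 9, and the other 8 INT-787 mice ended at 21.8 CPM. Without it the fitted values were -0.24 for INT-787 against vehicle and 0.047 for its difference from OCA, and neither passed the test. Although Slc22a4 and Slc22a5 are neighbours, their levels showed little correlation over the 28 mice (Spearman rho 0.06, Pearson r 0.05). With 3 to 45 counts of Slc22a4 per mouse, counting error pulls such a correlation toward 0, so a shared movement could be missed.

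Slc22a15, a member with broad tissue expression that carries zwitterions such as ergothioneine, was lower with both drugs and passed the test with OCA. The vehicle mice ranged from 12.8 to 19.1 CPM with a median of 16.4, the OCA mice from 8.44 to 17.5 CPM with a median of 11.4, and the INT-787 mice from 10.98 to 15.6 CPM with a median of 12.99. Of the OCA mice 8 of 9 lay below the vehicle median and 6 below every vehicle mouse, and of the INT-787 mice all 9 lay below the vehicle median and 4 below every vehicle mouse. The mean was 16.2 ± 2.33 CPM (SD, n = 10) with vehicle, 11.9 ± 2.69 CPM (SD, n = 9) with OCA, and 13.03 ± 1.35 CPM (SD, n = 9) with INT-787.

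For Slc22a15 the fitted value with OCA was a log2 fold change of -0.44 (SE 0.11, CI -0.66 to -0.21, adjusted p = 0.011 by edgeR). With INT-787 it was -0.30 (SE 0.11, CI -0.52 to -0.08) with an adjusted p of 0.051, just over the threshold, and the p fell under it in 6 of 11 fits with another scaling, filter, or model, DESeq2 among them (adjusted p = 0.041), and in 6 of the 28 fits without 1 mouse. Without the 5 libraries far from their group the value was -0.32 with OCA (adjusted p = 0.078) and -0.24 with INT-787 (adjusted p = 0.15), so the call with OCA was then lost. The difference between the drugs was 0.14 (CI -0.09 to 0.36, adjusted p = 0.57 by edgeR), smaller than the spread between mice.

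Slc22a18, a transporter of unknown substrate encoded in an imprinted region, was the most abundant of the 7. It ranged from 107 to 271 CPM with a median of 144 in vehicle mice, from 115 to 164 CPM with a median of 150.0 in OCA mice, and from 133 to 234 CPM with a median of 180.0 in INT-787 mice. The mean was 155 ± 43.6 CPM (SD, n = 10), 143 ± 17.2 CPM (SD, n = 9), and 177 ± 33.2 CPM (SD, n = 9) in the same order. None of its comparisons passed the test in the model of the 3 groups with all mice, while 1 of 11 other fits called it with INT-787 and 1 of 11, with 1 surrogate variable, called it between the drugs (0.34, adjusted p = 0.045). Fitted log2 fold changes of Slc22a18 were 0.19 with INT-787 (CI -0.06 to 0.45, adjusted p = 0.30 by edgeR) and -0.11 with OCA (CI -0.37 to 0.14, adjusted p = 0.71). The difference of INT-787 from OCA was 0.31 (CI 0.05 to 0.57) with an unadjusted p of 0.023 and an adjusted p of 0.17 by edgeR, and 5 of 9 INT-787 mice lay above every OCA mouse.

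Vehicle replicate 10 had 271 CPM of Slc22a18, while the other 9 vehicle mice ended at 168 CPM. Without that mouse the rise with INT-787 came to 0.32 on the log2 scale (adjusted p = 0.024 by edgeR), and without all 5 libraries far from their group it was 0.41 (adjusted p = 0.0070). Without those 5 libraries the difference of INT-787 from OCA was 0.36 (adjusted p = 0.044), and the value with OCA was 0.05. Vehicle replicate 10 was also the vehicle mouse with the highest Slc22a7 (10.4 CPM) and the lowest Slc22a4 (0.25 CPM).

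Slc22a23, which has no established substrate, and Slc22a30, a rodent gene of the organic anion branch, had nearly the same level in the 3 groups. Slc22a23 had a mean of 87.8 ± 11.5 CPM (SD, n = 10) with vehicle, 91.9 ± 12.02 CPM (SD, n = 9) with OCA, and 87.7 ± 17.3 CPM (SD, n = 9) with INT-787. Its vehicle mice ranged from 66.7 to 104 CPM, its OCA mice from 72.8 to 109 CPM, and its INT-787 mice from 63.7 to 118 CPM. The log2 fold change was 0.0029 with INT-787 (CI -0.21 to 0.21) and 0.071 with OCA (CI -0.14 to 0.28), and its sign with INT-787 turned in other fits. Slc22a30 had a mean of 28.9 ± 6.30 CPM (SD, n = 10), 29.7 ± 6.87 CPM (SD, n = 9), and 28.5 ± 3.74 CPM (SD, n = 9) in the same order. Its vehicle mice ranged from 20.4 to 37.1 CPM, its OCA mice from 17.2 to 41.8 CPM, and its INT-787 mice from 23.5 to 33.8 CPM. Its log2 fold change was -0.019 with INT-787 (CI -0.28 to 0.25) and 0.041 with OCA (CI -0.22 to 0.31), and both signs turned in other fits. The intervals of these 4 comparisons lay within 0.31 on the log2 scale. Between the drugs Slc22a23 differed by -0.068 (CI -0.28 to 0.15) and Slc22a30 by -0.060 (CI -0.33 to 0.21).

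Levels of different genes were compared per length, as CPM per kb of merged exons. In vehicle mice the order was Slc22a18 at 91.4 CPM per kb, Slc22a23 at 13.7, Slc22a30 at 8.57, Slc22a5 at 6.76, Slc22a7 at 2.28, Slc22a15 at 1.14, and Slc22a4 at 0.50, and Slc22a18 alone made up 73.5% of the sum. Slc22a18 stood above Slc22a23, and Slc22a5 above Slc22a7, with no overlap between the mice, while the other neighbours in this order overlapped in range. With drug, Slc22a7 moved from rank 5 to rank 3, at 9.35 CPM per kb with OCA and 11.7 CPM per kb with INT-787. There it could not be separated from Slc22a30 in OCA mice, where it was the higher of the pair in 4 of 9, and it was the higher in 8 of 9 INT-787 mice. The merged exons of Slc22a15 spanned 14.2 kb, the longest of the 7, and a shorter transcript in use would raise its level per kb.

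**Figure D3:**
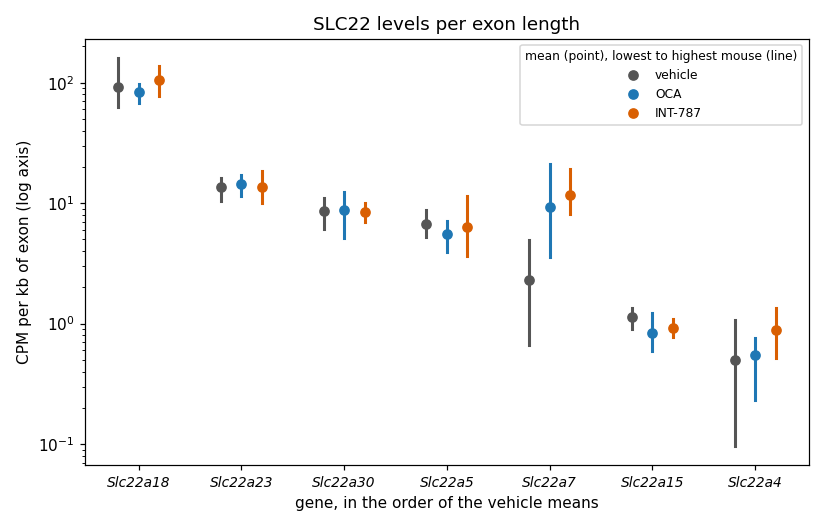
Level of each SLC22 gene in CPM per kb of exon (vertical axis, logarithmic) by group, with the mean as a point and a line from the lowest to the highest mouse. Slc22a7 goes from 2.28 with vehicle to 9.35 with OCA and 11.7 with INT-787, while Slc22a18 stays highest at 84.4 to 104 in the 3 groups.

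Of 18 other Slc22 genes in the table, 6 were tested. Slc22a3, the organic cation transporter OCT3, rose with INT-787 by 0.51 (adjusted p = 0.014) and had a value of 0.026 with OCA (adjusted p = 0.97), and the difference between the drugs of 0.49 missed the threshold (adjusted p = 0.053). Slc22a27, a gene of the chromosome 19 row that holds Slc22a30, fell by 0.83 with OCA (adjusted p = 0.0052) and had a value of -0.21 with INT-787 (adjusted p = 0.48), with a difference of 0.62 (adjusted p = 0.054). The tested genes Slc22a17, Slc22a26, and Slc22a29 passed in no comparison. The other 12 had 0 to 87 counts over all 28 mice, and Slc22a6 and Slc22a8, the main organic anion transporters of the kidney, were among them.

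**Figure D4:**
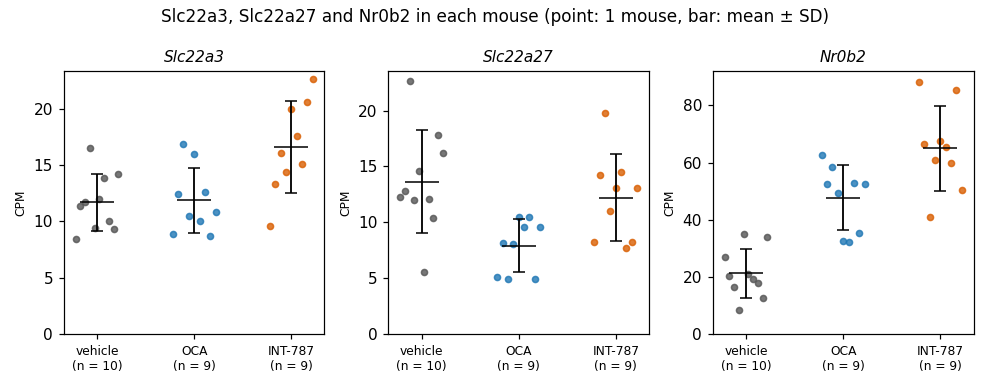
CPM (vertical axis, linear, from 0) in each mouse by group for Slc22a3, Slc22a27, and Nr0b2, with the mean and SD as a bar. Slc22a27 is lowest with OCA, at a mean of 7.91 CPM against 13.6 with vehicle, Slc22a3 is highest with INT-787, at 16.6 CPM against 11.7, and Nr0b2 rises from 21.2 to 47.6 with OCA and 65.0 with INT-787.

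Known targets of FXR served as a reference in the same livers. Nr0b2, which encodes the repressor SHP, rose by 1.62 with INT-787 and 1.17 with OCA on the log2 scale, and the bile acid synthesis genes Cyp7a1 (-2.28 and -2.54) and Cyp8b1 (-4.28 and -4.11) fell. The highest of these adjusted p values was 0.00010, for Nr0b2 with OCA. Cyp8b1 was -6.22 with INT-787 without INT-787 replicate 4 and -4.76 with OCA without OCA replicate 4. None of the 3 passed the test between the drugs. The 5 genes named next had levels most like those of Slc22a7 among 9355 genes with at least 5 CPM, by Spearman rho over the 28 mice on log2 CPM. They were Asap3 (rho 0.93, r 0.88), Srd5a1 (rho 0.92, r 0.93), Gpld1 (rho 0.91, r 0.88), Nr0b2 (rho 0.90, r 0.87), and Cyp2c23 (rho 0.90, r 0.89). The points share the 3 treatment groups, and after the mean of each group was subtracted the Pearson r of the same genes was 0.60, 0.68, 0.56, 0.52, and 0.64. These genes were picked for a high rho. With Abcb11 and Slc51b (described below) and Cyp8b1, the r of Slc22a7 within groups was 0.32, 0.25, and 0.08.

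**Figure D5:**
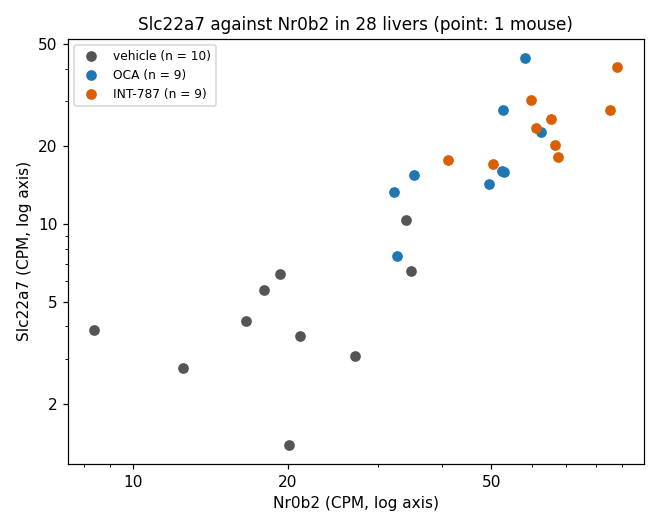
Slc22a7 (vertical axis, CPM, logarithmic) against Nr0b2 (horizontal axis, CPM, logarithmic), with 1 point per mouse coloured by group. The vehicle mice lie at the lower left and the INT-787 mice at the upper right, with a rho of 0.90 over 28 mice and a Pearson r of 0.52 within groups.

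For each of the other 6 transporters the highest rho was below that of Slc22a7. For Slc22a18 the nearest were Atp5d (rho 0.90, r 0.90, within groups 0.90), Mif (rho 0.85), and Timm50 (rho 0.85), and in vehicle replicate 10 Atp5d was also the highest of the vehicle mice, at 496 CPM against at most 374 in the others. For Slc22a23 they were Hipk1 (rho 0.81), Nf1 (rho 0.80), and Rnf144b (rho 0.77), and for Slc22a30 Tmem33 (rho 0.76), Ugt3a2 (rho 0.75, within groups r 0.85), and Abhd17c (rho 0.72). For Slc22a4 they were Trmt2b (rho 0.77), Nap1l4 (rho 0.75), and Gypc (rho 0.75), for Slc22a5 Tmem120a (rho 0.73), Hdac3 (rho 0.69), and Fbxo31 (rho 0.68), and for Slc22a15 Ces1d (rho 0.73), Csrp3 (rho 0.72), and Cd81 (rho 0.72). Among the 7 transporters themselves the within-group r of the 21 pairs ran from -0.46 (Slc22a4 with Slc22a18) to 0.44 (Slc22a7 with Slc22a30). The pair at -0.46 includes vehicle replicate 10, with the lowest Slc22a4 (0.25 CPM, 3 counts) and the far highest vehicle Slc22a18 (271 CPM).

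Genes that make, bind, or shuttle carnitine were examined beside the carnitine transporter Slc22a5. Of 8 tested, 1 rose and 2 fell with INT-787, 0 rose and 2 fell with OCA, and 1 was higher with INT-787 than with OCA, and their median log2 fold change was -0.15, -0.07, and 0.09. Over all genes tested, 10.2% rose and 9.48% fell with INT-787, 4.15% and 2.45% with OCA, and 5.38% differed between the drugs. Whether the counts of this short list exceed these shares was not tested. Crat, the carnitine acetyltransferase, fell from 144 ± 21.3 CPM (SD, n = 10) to 92.6 ± 21.6 CPM (SD, n = 9) with OCA and 95.4 ± 26.3 CPM (SD, n = 9) with INT-787, which on the log2 scale is -0.63 and -0.58 (adjusted p = 0.0029 and 0.0024 by edgeR). Slc25a20, which carries acylcarnitines across the inner mitochondrial membrane, fell by 0.39 with OCA and 0.33 with INT-787 (adjusted p = 0.035 and 0.041). Both calls of Slc25a20 were lost without the 5 libraries far from their group, at -0.30 with OCA (adjusted p = 0.15) and -0.23 with INT-787 (adjusted p = 0.21), and leaving out 1 mouse lost the call in 6 of 28 fits with OCA and in 12 of 28 with INT-787. Aldh9a1, an enzyme of carnitine synthesis, rose with INT-787 by 0.28 (adjusted p = 0.0091) and was higher than with OCA by 0.32 (adjusted p = 0.013).

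Among 16 tested organic ion transporters outside the SLC22 family, 7 rose and 2 fell with INT-787, 4 rose and 2 fell with OCA, and 3 were higher with INT-787 than with OCA. The shares over all genes tested were 10.2% and 9.48% with INT-787, 4.15% and 2.45% with OCA, and 5.38% between the drugs. The 7 include Abcc2 (0.40, adjusted p = 0.028 by edgeR), called in 9 of 11 fits with another scaling, filter, or model. Its call was lost in 4 of 28 fits without 1 mouse. The median of these 16 on the log2 scale was 0.24 (INT-787), 0.20 (OCA), and 0.23 (difference of the drugs). Slc51b, a subunit of the basolateral bile acid exporter, rose by 3.31 with INT-787 and 2.68 with OCA. For Slc51a, the other subunit, 4 of 9 mice with each drug lay above the vehicle median, 0 lay below it, and the rest were level with it. The rise thus covers the RNA of Slc51b and not the exporter, whose protein was not measured. Abcb11, the bile salt export pump, rose by 1.70 and 1.19, and Abcb1a, a drug efflux pump, by 1.88 and 1.16, and the difference between the drugs passed the test for both (0.50, adjusted p = 0.031, and 0.71, adjusted p = 0.0074 by edgeR). For Abcb11 this difference lost its call in 6 of 28 fits without 1 mouse (adjusted p up to 0.074) and without the 5 libraries far from their group (0.49, adjusted p = 0.053). Slco2b1, an uptake carrier of organic anions, rose by 0.58 and 0.32, and the latter was 0.27 with an adjusted p of 0.051 without OCA replicate 3. It was also called in only 10 of 11 fits with another scaling, filter, or model (adjusted p up to 0.057). Slco1a4, another such carrier, rose by 1.15 with INT-787 and was 0.87 higher than with OCA (adjusted p = 0.0056), and Abcc6, an exporter of hepatocytes, rose by 0.55 with INT-787 (adjusted p = 0.00030). The 3 that fell were named after their values were seen. Abcc4, an exporter of organic anions, fell by 0.84 with INT-787 (adjusted p = 0.0047) and by 1.04 with OCA (adjusted p = 0.0014), and Slc47a1, an exporter of organic cations, fell by 0.31 with OCA (adjusted p = 0.015). Slco1a1, an uptake carrier of organic anions, fell by 2.59 with INT-787 (adjusted p = 0.0084) from low counts, with 0 to 47 per mouse under vehicle and 0 to 16 under INT-787.

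The samples were whole liver, in which fewer cells of a type and less RNA per cell cannot be told apart. Over all genes tested, 10.2% rose and 9.48% fell with INT-787, and 4.15% and 2.45% with OCA, beside the marker counts below. Hepatocyte markers were abundant, and 2 of 6 rose with each drug. These were Alb and Tat. In fits with another scaling, filter, or model, Alb with INT-787 was called in 9 of 11 and Tat with OCA in 10 of 11. Alb with INT-787 also lost its call without INT-787 replicate 6 (0.38, adjusted p = 0.062). Tat with OCA also lost its call without OCA replicate 9 (0.48, adjusted p = 0.075) and without the 5 libraries far from their group (0.46, adjusted p = 0.14). The summed level of the 6 hepatocyte markers ran from 60224 to 134660 CPM with vehicle, from 103824 to 195024 CPM with OCA, and from 93099 to 164306 CPM with INT-787. Of the stellate cell and myofibroblast markers 3 of 6 fell with INT-787 and none with OCA, and their sum ran from 1138 to 2081 CPM, 1058 to 2631 CPM, and 431 to 1054 CPM in the same order. Of the macrophage markers 2 of 6 fell with INT-787 and none with OCA, with sums of 244 to 352 CPM, 191 to 438 CPM, and 199 to 310 CPM. The 6 did not move alike, as their log2 fold changes with INT-787 ran from -0.69 to 1.74. With INT-787 also 2 of 6 endothelial markers (sums of 153 to 314 CPM, 145 to 220 CPM, and 108 to 238 CPM), 1 of 5 cholangiocyte markers (482 to 798 CPM, 442 to 1618 CPM, and 336 to 537 CPM), 1 of 5 tested lymphocyte markers (18.4 to 27.9 CPM, 12.97 to 23.8 CPM, and 12.8 to 26.2 CPM), and 0 of 3 tested neutrophil markers (2.76 to 9.46 CPM, 2.73 to 9.00 CPM, and 3.32 to 6.35 CPM) fell. Of the 2 endothelial markers, Pecam1 lost its call in 17 of 28 fits without 1 mouse and Cdh5 in 6 of 28. The cholangiocyte marker that fell was Spp1 (-0.74, adjusted p = 0.0021 by edgeR), and the lymphocyte marker was Ptprc (-0.61, adjusted p = 0.0027). No other marker of these 2 lists passed the test with INT-787, so neither count speaks for its cell type as a whole. Between the drugs, where 5.38% of all genes passed, Col1a1 (-1.59), Col3a1 (-1.40), Spp1 (-1.12), Serpina1c (-0.64), and Cd68 (-0.61) were lower with INT-787. Marco, a macrophage marker, was higher (2.63, adjusted p = 0.037 by edgeR). Marco and Serpina1c each lost this call in 9 of 28 fits without 1 mouse. No marker of these lists was at 0 in all mice of a group. Of the kidney tubule markers none passed the filter, Umod had 0 counts in all mice, and 56 of the 64 counts of Slc5a2 lay in vehicle replicate 5 (6.13 CPM). The part of these shifts in the values of the transporters was not tested.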

How the data were processed

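Liver RNA of 28 mice was measured. Per the labels, stranded libraries of polyadenylated RNA were sequenced with a 75-cycle kit. The authors aligned the reads with STAR to GRCm38 with Ensembl annotation and deposited raw counts, the number of reads per Ensembl gene, unnormalized and with a column for each mouse. Which program counted them, whether strand was used, and how genes were filtered are not given in the sources used here. No column belonged to a sample outside the series, and no row lacked a gene name. Of 21935 genes, 21858 matched GENCODE M21, the source of symbols, coordinates, and exon lengths. Groups came from the sample labels.

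Genes were kept by filterByExpr (12580), scaled by TMM, and tested with edgeR 4.0.16 in R 4.3.3 by glmQLFit and glmQLFTest. The design held the 3 groups and no covariate, as the replicate numbers were not taken to pair the mice. P values were adjusted by the Benjamini-Hochberg method over all 12580 genes, and a gene was called at an adjusted p of at most 0.05. CPM were computed with the TMM-scaled totals. SE is the log2 fold change divided by the root of F. At the lowest total, vehicle replicate 6, 1 CPM is about 1.09 counts. The procedure was tested on simulated data. Python 3.11.15, pandas 2.3.3, and Biopython 1.88 were used for tables and sequences.

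The 7 genes, the gene lists, and the tests were chosen with earlier results of these data known. Named besides them were other Slc22 genes that passed a test or had the highest CPM, up to 6 called genes with the lowest adjusted p from each list (carnitine, other organic ion transporters, FXR targets), and the genes with the most similar levels (5 for Slc22a7, 3 for each other gene, log2 CPM with a prior count of 2). Atp5d in vehicle replicate 10, Slc51a, Abcc2, single cell type markers, and the nearest untested relatives Slc22a28 and Slc22a21 were named after their values were seen. A gene that this rule selects is not reported here and stays in all counts and tests.

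As alternatives, edgeR was run with size factors of DESeq2 or with upper-quartile factors, with no filter or at least 10 counts in every mouse, with robust estimation, with only the 2 groups compared, with 1 surrogate variable (sva 3.50.0), and with a factor for the replicate number or for sets of neighbouring sample numbers. Further alternatives were DESeq2 1.42.0, limma-voom (limma 3.58.1), calls at an adjusted p up to 0.01 or with a log2 fold change of 1 or more in size, each mouse left out, and vehicle replicates 5 and 6 left out together. Leaving out the 5 libraries over 0.4 in root mean square log2 distance was added after seeing the data.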

Additional observations from a re-analysis of the deposited data

Results flagged for a closer look

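Each of the 7 genes was examined in each group for a mouse far from the others, 21 groups of values in all, and 2 had one, where chance gives about 1 in 20. Slc22a5 was at 35.4 CPM in INT-787 replicate 9, while the other 8 INT-787 mice lay between 11.1 and 21.8 CPM. Slc22a18 was at 271 CPM in vehicle replicate 10, while the other 9 vehicle mice lay between 107 and 168 CPM.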

How the results depend on the processing

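Over the 21 comparisons of the 7 genes, 897 values were recomputed, of which 839 kept direction and side of the threshold. The calls of Slc22a7 with both drugs and of Slc22a4 with INT-787 held in all 10 other fits that could include them, in all 28 fits without 1 mouse, and without the 5 libraries far from their group, and Slc22a4 was lost when a log2 fold change of at least 1 was asked for. The number of the 7 genes called with INT-787 went from 2 to 1 with at least 10 counts in every mouse, a filter that removes Slc22a4 and Slc22a7 and under which Slc22a15 was called (-0.33, adjusted p = 0.024), and with a log2 fold change of at least 1. It went to 3 with DESeq2 size factors, upper-quartile factors, sample number sets, only the 2 groups compared, and DESeq2 (Slc22a15 added), and without the 5 libraries (Slc22a18 added). With OCA it went from 2 to 1 under the same 2 choices, at an adjusted p of at most 0.01, and without the 5 libraries far from their group. Between the drugs it went from 0 to 1 with 1 surrogate variable, where Slc22a18 had 0.34 (adjusted p = 0.045), and without the 5 libraries far from their group (Slc22a18). Without 1 mouse the number called ranged from 2 to 3 with INT-787, stayed at 2 with OCA, and ranged from 0 to 1 between the drugs (Slc22a4 without vehicle replicate 10).

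Values near 0 turned sign. Slc22a23 with INT-787 was -0.0045 with DESeq2 size factors, -0.057 with upper-quartile factors, -0.026 with at least 10 counts, -0.011 with sample number sets, -0.034 with 1 surrogate variable, -0.0026 in DESeq2, -0.0035 in limma-voom, -0.018 without vehicle replicates 5 and 6, and -0.0032 without the 5 libraries, and without 1 mouse it ranged from -0.059 to 0.052. Slc22a30 with INT-787 was 0.011 with 1 surrogate variable, 0.0025 in limma-voom, 0.024 without vehicle replicates 5 and 6, and 0.095 without the 5 libraries, and without 1 mouse it ranged from -0.067 to 0.030. Slc22a30 with OCA was -0.051 with sample number sets and ranged from -0.034 to 0.12 without 1 mouse, and between the drugs it was 0.0026 and ranged from -0.13 to 0.016. Slc22a18 with OCA was 0.048 without the 5 libraries. The cause of these turns was not tested.

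The replicate number was not used to pair mice in the main fit. Of same-numbered pairs 11 of 27 had a correlation over 0.1 (median 0.077), against 52 of 234 pairs with different numbers (median 0.0037). Pairs in the same set of neighbouring sample numbers passed 0.1 in 13 of 25 (median 0.11), against 50 of 236 in different sets (median -0.0068). Such mice thus deviated together more often than others, which the main fit leaves out. With a factor for the sets, Slc22a15 with INT-787 was -0.31 with an adjusted p of 0.040 by edgeR. In the fit with the replicate block, Slc22a23 with INT-787 was -0.040, Slc22a30 with INT-787 was 0.030, Slc22a18 with OCA was 0.0093, and Slc22a18 with INT-787 was 0.31 with an adjusted p of 0.036, and the calls of the 7 genes numbered 3, 2, and 0. Depth limits Slc22a4 most, with 3 to 45 counts per mouse.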
